A study of Mus musculus with 30 samples.

Results

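The interferon response genes are genes that cells switch on when interferons bind their receptors, together with the factors that drive them. Of 47 listed genes, 45 had a probe on the Illumina mouse bead arrays used here, found by the platform's current or older gene symbol; they took 87 probes, out of 19057 genes with a probe. Herc6 and Ifi44 had none. A probe was kept when its detection p-value was under 0.05 on at least 3 of the 30 arrays, which left 77 of the 87 probes and 44 members among the 11937 genes tested; the probe of Ifit1 was detected on 1 array and was not tested.

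The arrays measured RNA of F4/80+ macrophages sorted from spleen (SP) or bone marrow (BM) of C57BL/6 mice. All mice carried 1 TCL1 transgene (Eµ-TCL1, genotype TCL1+/wt), whose promoter and enhancer direct the oncogene to B cells, so the macrophages themselves are not the targeted cells. Mice were either Mif-/- (KO) or Mif+/+ (WT), lacking or having macrophage migration inhibitory factor, and either leukaemic (l), labelled as 2 to 5 months old, or non-leukaemic (nl), labelled as 10 to 15 months old. The ages are given as the labels have them and could not be checked. The labels name no agent for any group. There were 4 arrays of leukaemic and 3 of non-leukaemic KO spleen (KO-l-SP and KO-nl-SP), and 3 each of leukaemic and non-leukaemic WT spleen (WT-l-SP and WT-nl-SP). In marrow there were 6 leukaemic and 3 non-leukaemic KO arrays (KO-l-BM and KO-nl-BM), and 5 leukaemic and 3 non-leukaemic WT arrays (WT-l-BM and WT-nl-BM). The labels do not tie arrays to animals, so every p-value measures the spread between arrays, which may be partly technical. Age moved with leukaemia in the labels, and the effects of age and leukaemia cannot be told apart.

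Levels are normalised log2 intensities, and differences are on the log2 scale with the standard error (SE) of the limma fit. A gene was called at a Benjamini-Hochberg adjusted p under 0.05 over all 11937 genes. The median intensity of an array before normalisation lay between 76.5 and 96.8. Of 45281 probes, 16492 to 18567 were detected per array. Mif was lower in KO by 6.59 to 7.37 log2 units in the 4 pairs of groups and was called each time. Adgre1, the gene of F4/80, was detected on all 30 arrays. Array means over the 4 tested B-cell markers lay between 4.75 and 6.33, highest on KO-l-SP 2 (6.33), WT-nl-SP 3 (6.09) and WT-nl-SP 1 (5.7), while the neutrophil list ran from 6.25 to 12.99. In 3 spleen arrays the closest array of all 30 was a marrow array. They were KO-l-SP 2 (closest to KO-l-BM 1, r = 0.98), WT-l-SP 3 (closest to WT-l-BM 2, r = 0.984) and KO-nl-SP 6 (closest to KO-nl-BM 2, r = 0.979). The highest correlation of WT-nl-SP 1 with any array was 0.919, the lowest of the 30. Whether the tissue labels of these arrays hold was not tested. Medians over all members that rest on spleen are therefore also given without these 4 arrays or without KO-l-SP 2 alone where that moved them. Medians of roles and of marker lists are given with all arrays in.

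Type I interferons (the Ifna family and Ifnb1) act through Ifnar1 and Ifnar2 and the kinases Tyk2 and Jak1, which set off a complex that holds Stat2 and Irf9 and binds the interferon-stimulated response element (ISRE). Interferon gamma (Ifng) acts through Ifngr1, Ifngr2, Jak1 and Jak2 and leads to transcription through the gamma-activated site (GAS). In macrophages the first arm is known for antiviral and RNA-sensing genes, and the second for immunity-related GTPases, antigen processing and the chemokines Cxcl9 and Cxcl10.

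Promoters, given as the 250 bases before a RefSeq start site on assembly GRCm38.p6, are shown for 5 members that the results below turn on. The search covered 250 bases before to 50 after the start, on both strands, for the ISRE (GAAA, any 2 bases, GAAA) and the GAS (TTC, any 3 bases, GAA), and counted overlapping matches separately. Capitals mark the matched letters. Isg15 (chr4:156200819-156201068, minus strand) held 3 overlapping ISRE matches, starting at -78, -72 and -66. Oas1g (chr5:120887614-120887863, minus strand) held 2 overlapping matches at -18 and -12. Oasl1 (chr5:114922990-114923239, plus strand) held neither motif. Igtp (chr11:58199306-58199555, plus strand) held a GAS match at -45 and an ISRE match at -34, and Irf1 (chr11:53769764-53770013, plus strand) a GAS match at -90. Another start site of Irf1 in the same table held neither.
Isg15: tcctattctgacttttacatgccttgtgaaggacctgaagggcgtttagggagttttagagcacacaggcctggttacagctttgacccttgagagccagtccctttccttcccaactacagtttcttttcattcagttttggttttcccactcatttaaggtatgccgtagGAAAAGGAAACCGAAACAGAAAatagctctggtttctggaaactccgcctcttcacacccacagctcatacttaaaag
Oas1g: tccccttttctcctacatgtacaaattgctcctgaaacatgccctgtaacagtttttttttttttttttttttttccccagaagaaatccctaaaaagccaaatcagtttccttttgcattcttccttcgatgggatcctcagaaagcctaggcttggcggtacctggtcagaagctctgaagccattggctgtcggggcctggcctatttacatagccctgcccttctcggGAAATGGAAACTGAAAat
Oasl1: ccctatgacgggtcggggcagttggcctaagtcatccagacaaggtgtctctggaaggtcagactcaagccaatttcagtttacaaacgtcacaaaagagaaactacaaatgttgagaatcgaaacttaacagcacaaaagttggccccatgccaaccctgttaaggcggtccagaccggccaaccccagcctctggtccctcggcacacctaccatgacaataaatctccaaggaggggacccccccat
Igtp: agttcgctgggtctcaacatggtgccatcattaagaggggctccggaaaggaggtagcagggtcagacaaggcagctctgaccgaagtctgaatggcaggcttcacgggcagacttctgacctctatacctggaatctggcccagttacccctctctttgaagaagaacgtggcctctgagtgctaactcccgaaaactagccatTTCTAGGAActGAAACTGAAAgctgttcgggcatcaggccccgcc
Irf1: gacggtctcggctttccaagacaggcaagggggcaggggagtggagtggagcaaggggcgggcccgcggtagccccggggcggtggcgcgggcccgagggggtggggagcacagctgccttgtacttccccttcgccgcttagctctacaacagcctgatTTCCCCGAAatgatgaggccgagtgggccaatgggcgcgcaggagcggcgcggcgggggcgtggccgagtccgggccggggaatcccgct

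RefSeq promoters were matched for 37 of the 47 members. An ISRE match lay in 19 of them (51.4%), against 3.44% of all 32851 promoters in the table and 3.99% of 27025 genes. A GAS match lay in 10 members (27%), against 8.3% of promoters and 9.55% of genes. Letters alone do not show that a factor binds, and their absence covers this window only. The median difference between leukaemic KO and WT marrow was -0.51 over the 18 tested members with an ISRE match and -0.43 over the 16 without, and between spleen and marrow it was 0.25 with and 0.23 without.

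Of the ligands, probes for Ifna2, Ifna4, Ifna5 and Ifnb1 were detected on 0 of 30 arrays, and so was the probe of Ifnar1. A probe that was not detected does not show that its gene is silent. The Ifna1 probe used was detected on 24 arrays, with a mean level of 4.58, little above background. Ifng was detected on 15 arrays, on 4, 2, 3 and 2 arrays of KO-l-SP, WT-l-SP, KO-nl-SP and WT-nl-SP, against 1, 2, 1 and 0 arrays of KO-l-BM, WT-l-BM, KO-nl-BM and WT-nl-BM. Its level averaged 5.71 ± 0.997 (SD, n = 4) in KO-l-SP and 4.3 ± 0.156 (SD, n = 6) in KO-l-BM. Ifnar2, Ifngr1, Ifngr2, Jak1, Jak2 and Tyk2 were detected on all 30 arrays.

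Most members lay high or low on the same arrays. As a summary of each array, the median over the 44 members of the deviation from each gene's own mean was taken. It ran from -1.09 on KO-l-SP 2 and on KO-l-BM 1 to 0.76 on KO-l-SP 1. On KO-l-SP 2, 3 of 44 members lay above their own mean, and on KO-l-SP 1, 39 did. The group means of this value were 0 ± 0.783 (SD, n = 4) in KO-l-SP, 0.13 ± 0.0501 (SD, n = 3) in WT-l-SP, 0.32 ± 0.127 (SD, n = 3) in KO-nl-SP and 0.17 ± 0.546 (SD, n = 3) in WT-nl-SP. In marrow they were -0.44 ± 0.523 (SD, n = 6) in KO-l-BM, 0.11 ± 0.153 (SD, n = 5) in WT-l-BM, -0.21 ± 0.115 (SD, n = 3) in KO-nl-BM and 0.28 ± 0.313 (SD, n = 3) in WT-nl-BM. The spread within the leukaemic KO groups and within WT-nl-SP was wider than most distances between groups. The plot of array medians shows this, and the map of all members shows which genes carry it.

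**Figure D1:**
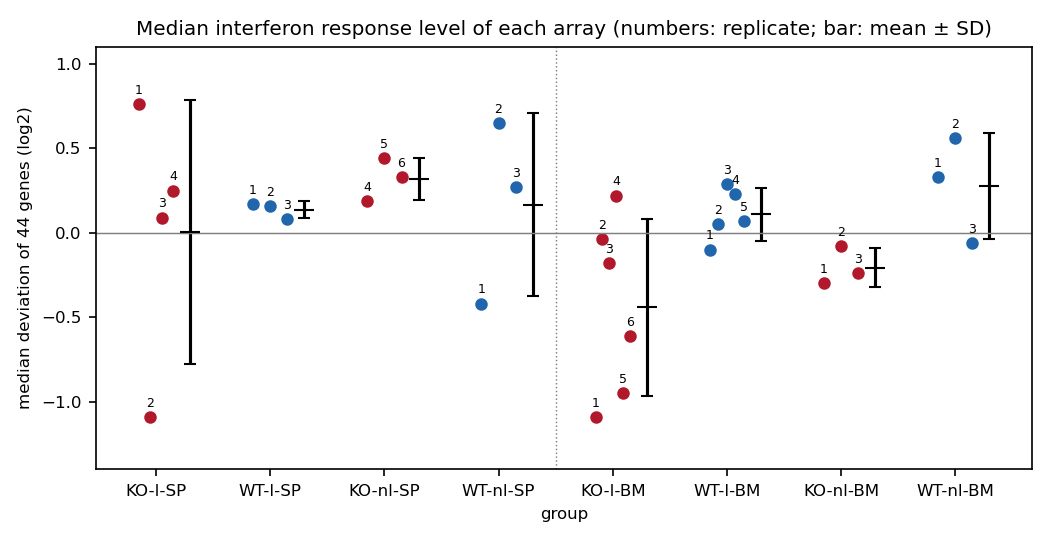
Median log2 deviation of 44 interferon response genes from their own means on each of 30 arrays, by group, with the replicate number beside each point (red: Mif KO, blue: WT) and the group mean ± SD beside the points. KO-l-SP 2 and KO-l-BM 1 both lie at -1.09, while the 3 WT-l-SP arrays lie between 0.08 and 0.17.

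**Figure D2:**
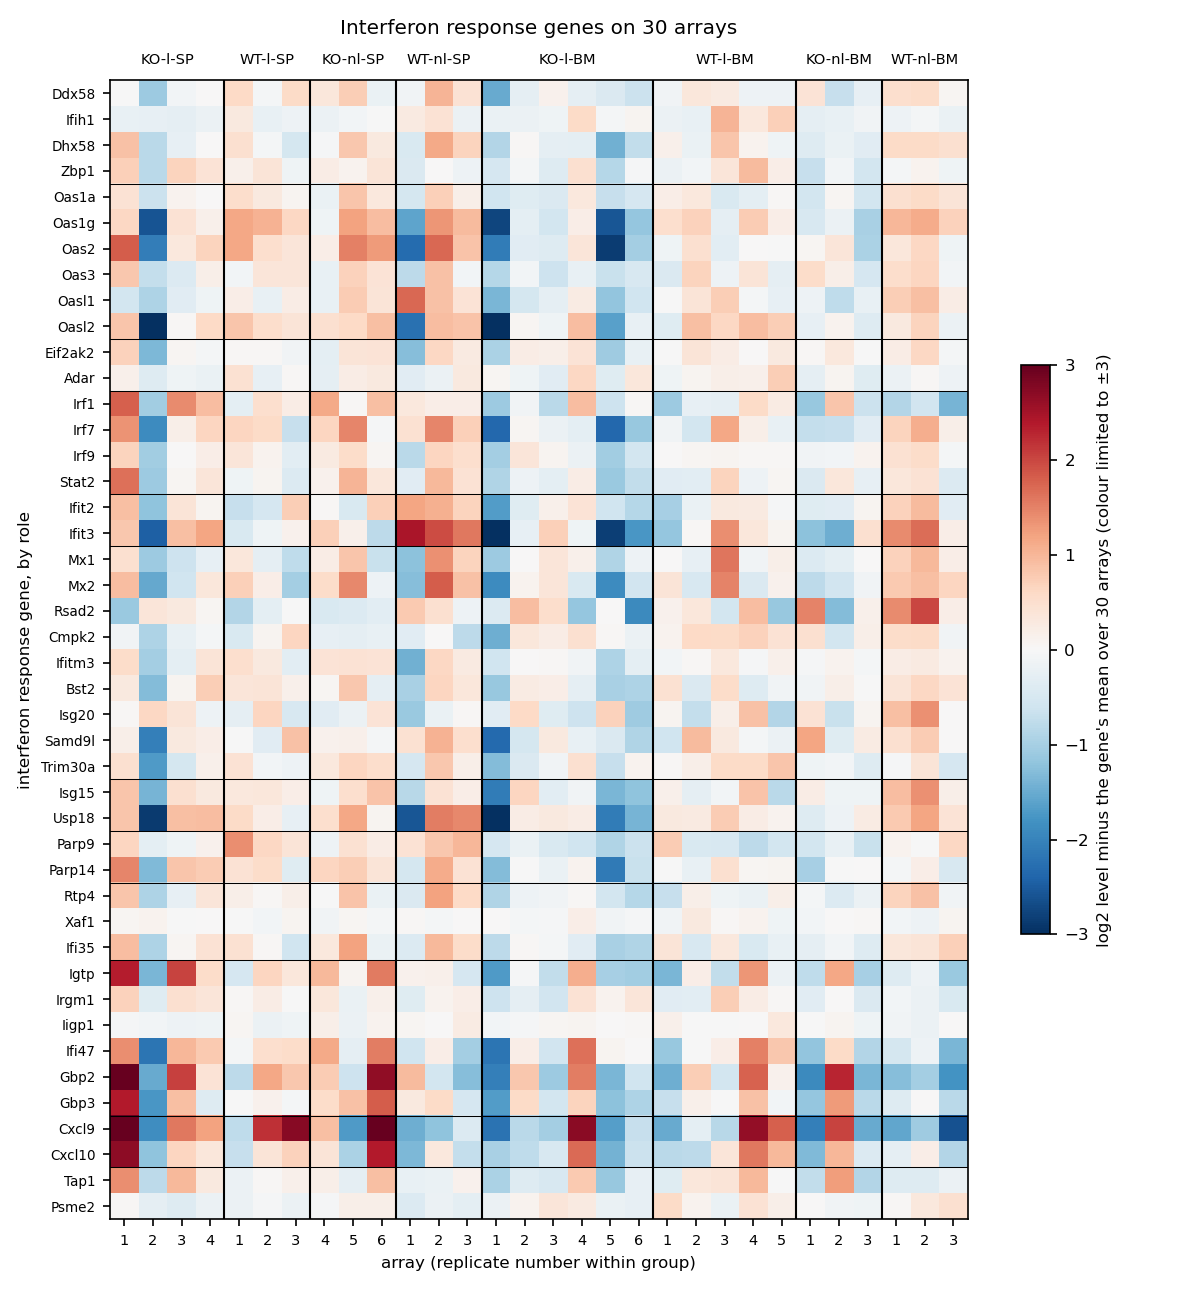
Log2 level of each of 44 members minus its mean over 30 arrays, with members by role down the page and arrays by group across it (colour limited to ±3). KO-l-SP 2, KO-l-BM 1 and KO-l-BM 5 are low across most rows. Most GTPase and chemokine rows are high on arrays of both genotypes, among them KO-l-SP 1, KO-nl-SP 6, KO-l-BM 4 and WT-l-BM 4.

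Within groups, the median SD was 0.606 over the members, against 0.269 over all genes, and 41 of 44 members exceeded 0.269. Over the 30 arrays, with group means removed, the correlation of the 946 pairs of members had a median r of 0.42, and 88.1% were above 0. The median was 0.33 without KO-l-SP 2 and WT-l-SP 3. Arrays also share their RNA and hybridisation, so these correlations are a description. The closest pairs were Oas2 with Eif2ak2 (r = 0.97), Oas1g with Oas2 (r = 0.95), Mx1 with Mx2 (r = 0.95), Igtp with Gbp2 (r = 0.94), Irf9 with Usp18 (r = 0.93) and Cxcl9 with Cxcl10 (r = 0.92). Against the median of the other members, 35 of 44 had r above 0.5. Rsad2 (-0.12), Xaf1 (-0.04), Isg20 (-0.01) and Iigp1 (0.02) did not follow it, and Parp9 (0.25) and Oasl1 (0.4) followed it weakly. Xaf1 and Iigp1 were detected on 3 arrays each, so their levels lie near background.

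The GTPases Igtp, Irgm1, Ifi47, Gbp2 and Gbp3 belong to families that act in defence against pathogens held in vacuoles. Together with the T-cell-attracting chemokines Cxcl9 and Cxcl10 they had a median r of 0.81 among themselves. Iigp1, the GTPase detected on 3 arrays, was left out after its values were seen, and over all 6 GTPases the median r was 0.55. With Irf1, a transcription factor induced by interferon gamma, and Tap1, the peptide transporter of antigen presentation, it was 0.84, and with the 6 OAS genes it was 0.44. The OAS genes, most of which encode enzymes that make the activator of RNase L, had 0.65 among themselves. Cxcl9 had the widest range of all members. It stood at 10.02, 5.05, 8.49 and 8.13 in KO-l-SP and at 7.82, 5.22 and 11.23 in KO-nl-SP, each spanning most of the range seen on 30 arrays. The genes outside the list most like the member median over the 30 arrays were Trim21 (r = 0.9), Mndal (r = 0.88), Ifi214 (r = 0.88) and H2-D1 (r = 0.87).

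The Mif comparison asks how macrophages without the cytokine differ from those with it. In leukaemic marrow, all 44 members lay lower in KO than in WT, against 49.2% of all genes, with a median difference of -0.51 against 0 over all genes. The limma test called 0 members (0.0419% of genes were called) and 6 passed an unadjusted p under 0.05, all lower, against 1.46% of genes. No member had every KO array below every WT array (0.184% of genes did). The differences ran from -1.57 for Oas1g to -0.04 for Xaf1. Because most members vary together over the arrays, their 44 directions are not 44 separate observations.

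Among the RNA sensors, Dhx58, the regulator Lgp2 of the RIG-I pathway, stood at 6.9, 7.83 and 8.37 (lowest, median, highest) in KO-l-BM, against 8.49, 8.15, 9.17, 8.44 and 8.21 in WT-l-BM. The groups overlapped in a narrow zone, and the difference was -0.75 ± 0.3 (SE), with adjusted p = 1. Ddx58, the sensor RIG-I itself, differed by -0.53 ± 0.27 and Zbp1, a sensor of Z-form nucleic acid, by -0.47 ± 0.25. Ifih1, the sensor Mda5, was detected on 9 of 30 arrays in all, and its difference was -0.32 ± 0.18. The median of the 4 sensors was -0.5.

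The OAS genes had a median of -0.92. Oasl1, known in mouse as a translational repressor of Irf7, stood at 4.46, 5.28 and 6.09 in KO-l-BM, against 5.82, 6.23, 6.57, 5.79 and 5.6 in WT-l-BM. It averaged 5.22 ± 0.598 (SD, n = 6) in KO and 6 ± 0.395 (SD, n = 5) in WT, and 5 of 6 KO arrays lay below every WT array (-0.78 ± 0.27, adjusted p = 1). Oas1g stood at 5.25, 7.14 and 8.2 in KO-l-BM, against 8.51, 8.69, 7.73, 8.76 and 8.2 in WT-l-BM. Its difference was -1.57 ± 0.57 with adjusted p = 1, and the low end came from KO-l-BM 1 at 5.25 and KO-l-BM 5 at 5.43. Oasl2 differed by -1.31 ± 0.7, Oas2 by -1.07 ± 0.64, Oas3 by -0.52 ± 0.29 and Oas1a by -0.35 ± 0.23.

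Among the other roles, the Isg15 modifier and its protease Usp18 had a median of -1.04, with -0.71 ± 0.42 for Isg15 and -1.37 ± 0.73 for Usp18. Ifit3, which belongs to a family that binds foreign RNA, stood at 4.68, 7.3 and 9.01 in KO-l-BM, against 7.13, 8.33, 9.69, 8.64 and 8.37 in WT-l-BM, a difference of -1.44 ± 0.69 with wide overlap. Irf7, the main amplifier of type I interferon production, differed by -1.13 ± 0.51, whereas Irf1 stood at -0.12 ± 0.43. Of the antiviral effectors, Trim30a differed by -0.76 ± 0.32, Mx2 by -0.94 ± 0.54, and Ifitm3, which blocks viral fusion, by -0.39 ± 0.28. The kinase Eif2ak2 (PKR), which halts translation on double-stranded RNA, was at -0.41 ± 0.33 and Parp14 at -0.77 ± 0.41. The median was -0.84 for the 2 chemokines, -0.43 for Tap1 and Psme2 and -0.41 for the 6 GTPases, with Irgm1 at -0.17 ± 0.22, Cxcl9 at -0.98 ± 1.08 and Tap1 at -0.67 ± 0.39. Every one of these had adjusted p = 1 in the limma fit.

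The lower median in leukaemic KO marrow drew on some arrays more than on others. It was -0.35 without KO-l-BM 1 and -0.63 without KO-l-BM 4, with 42 to 44 members lower across the fits that left out each array in turn. On the slide that held 3 arrays of each genotype the median was -0.63, with 43 members lower. On a slide with 1 array of each genotype it was 0.07, with 15 lower. With slide as a fixed block it was -0.54. Of the 45 other interferon-induced genes, 42 lay lower, with a median of -0.32, and of 25 genes of interferon production and signalling 17 did, with a median of -0.08; 0 of either list were called. All 10 neutrophil markers lay higher in KO (median 0.84, array means of the list 10.83 to 12.78 in KO-l-BM and 9.47 to 12.93 in WT-l-BM), and so did all 8 erythroid markers (median 0.55, array means 6.46 to 9.73 in KO-l-BM and 6.71 to 9.38 in WT-l-BM). The 5 macrophage markers lay lower (median -0.15, array means 8.49 to 9.33 and 8.58 to 9.75). Their part in the interferon result was not tested, and in bulk RNA fewer cells of a type and less RNA per cell cannot be told apart.

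**Figure D3:**
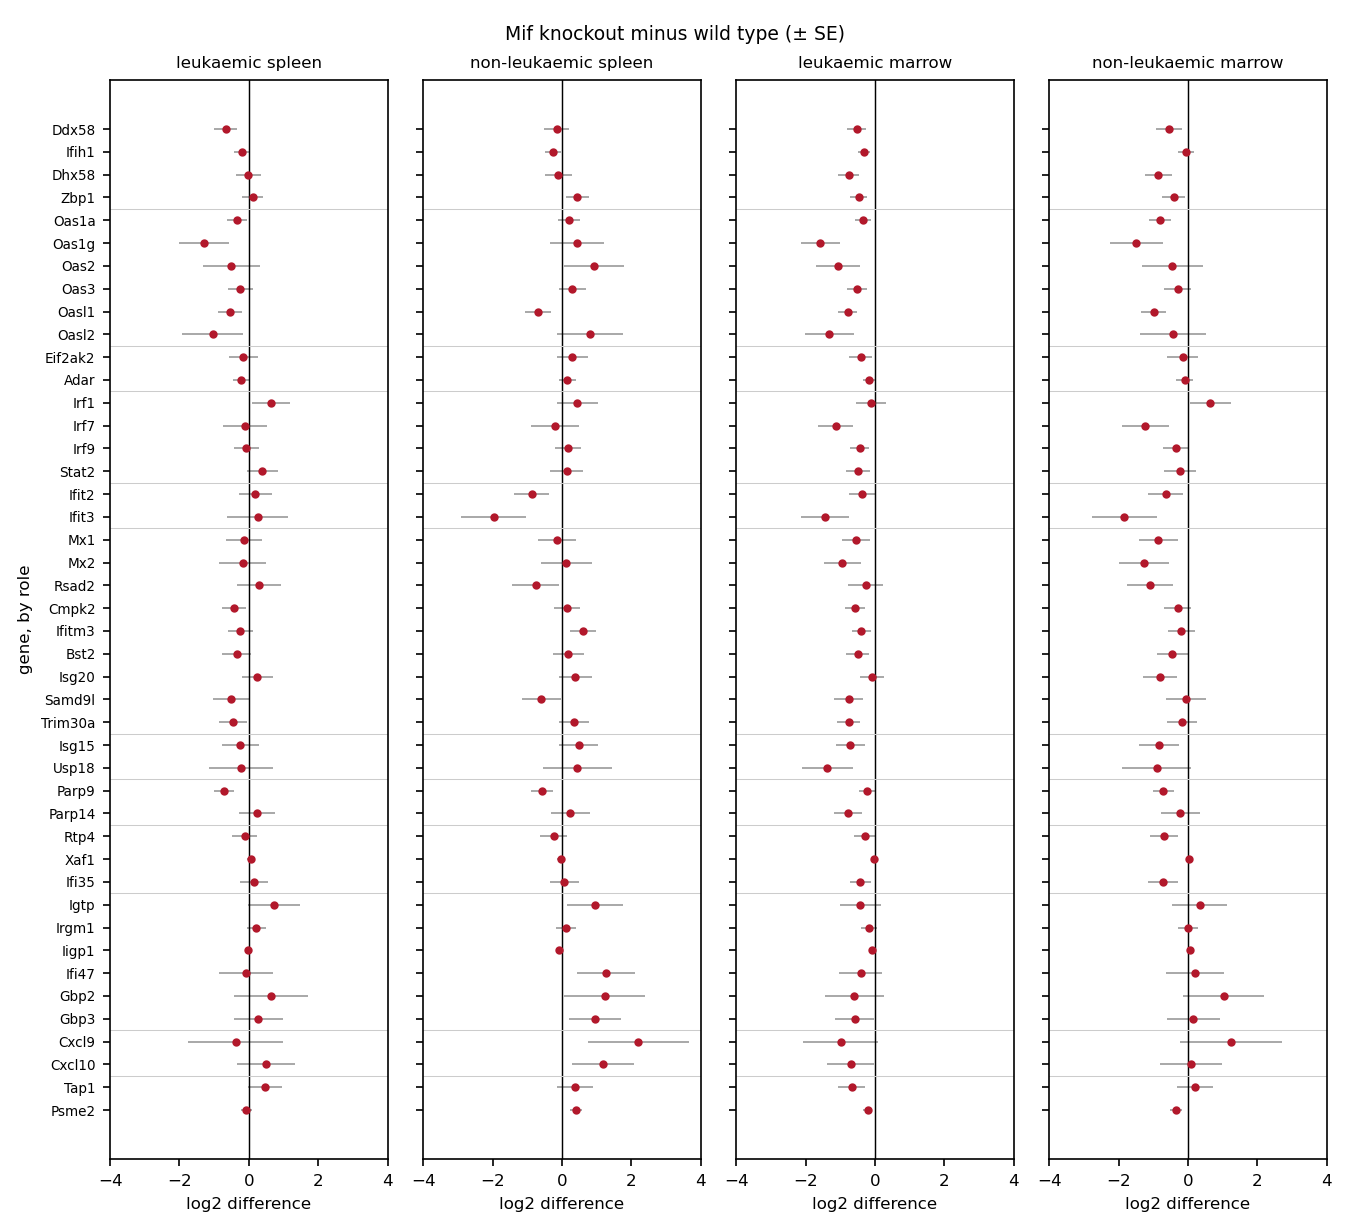
Log2 difference between Mif KO and WT for each of 44 members (points, with bars of 1 SE), in leukaemic and non-leukaemic spleen and in leukaemic and non-leukaemic marrow; grey lines separate roles. In leukaemic marrow all 44 points lie below 0, while in non-leukaemic spleen 30 lie above it.

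In non-leukaemic marrow the members lay lower in KO in 34 of 44 cases (52.1% of genes), with a median of -0.34. The groups were apart for 12 members, each with all 3 KO arrays below all 3 WT arrays, against 9.66% of genes. They were Oasl1, Oas1a, Oas1g, Dhx58, Irf7, Mx1, Mx2, Bst2, Usp18, Ifi35, Parp9 and Psme2, and none lay entirely above. Oasl1 stood at 5.69, 5.09 and 5.63 in KO-nl-BM, against 6.57, 6.74 and 6.06 in WT-nl-BM, a difference of -0.99 ± 0.37 with adjusted p = 0.75. Oas1a stood at 4.31, 4.92 and 4.31 in KO-nl-BM, against 5.33, 5.42 and 5.24 in WT-nl-BM (-0.81 ± 0.31, adjusted p = 0.77), and Parp9 at 4.54, 4.88 and 4.42 against 5.19, 5.09 and 5.71 (-0.71 ± 0.31, adjusted p = 0.86). The other Parp9 probe was at 0.22 ± 0.22, higher in KO. Both chemokines and 5 of the 6 GTPases lay higher in KO, with Cxcl9 at 4.85, 8.93 and 5.41 in KO-nl-BM against 5.35, 5.84 and 4.3 in WT-nl-BM, so KO-nl-BM 2 alone was high. The limma test called 0 members (0.0754% of genes), and 4 passed an unadjusted p under 0.05, all lower (2.81% of genes). On the 2 slides with 1 array of each genotype the median was -0.55 and -0.02. All 10 neutrophil markers lay higher (median 1.15). All 8 erythroid (median -0.84), 5 plasmacytoid dendritic cell (-0.66), 5 macrophage (-0.59) and 3 monocyte markers (-0.42) lay lower, and their part was not tested. The plasmacytoid list counts Bst2, itself a member. With array weights, limma called 9 members and 1448 of all 11937 genes.

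In leukaemic spleen the median difference was -0.12, with 28 of 44 members lower in KO (52.4% of genes), and 0 members were called by limma (0.0419% of genes), with 1 at an unadjusted p under 0.05, lower (3.14% of genes). The direction rested on KO-l-SP 2, since without that array the median was 0.24 and 31 members lay higher (47.7% of genes). It was 0.37 and 0.08 on the 2 slides with 1 array of each genotype, which do not hold KO-l-SP 2. All 6 OAS genes lay lower with all arrays in, 5 of them without KO-l-SP 2 (Oas2 was then at 0.25 ± 0.77). Oas1g stood at 8.61, 5.4, 8.43 and 8.16 in KO-l-SP, against 9.15, 9.05 and 8.61 in WT-l-SP (-1.29 ± 0.72, adjusted p = 0.98), and its difference was -0.54 ± 0.65 without KO-l-SP 2. Parp9, an ADP-ribosyltransferase family member that acts with Dtx3l in the interferon response, stood at 5.73, 4.79, 4.96 and 5.23 in KO-l-SP, against 6.48, 5.72 and 5.49 in WT-l-SP. Its difference was -0.72 ± 0.29 with adjusted p = 0.92, and the groups overlapped by KO-l-SP 1. The other Parp9 probe lay on the other side of 0, at 0.29 ± 0.21. Ddx58 stood at 6.04, 4.94, 5.97 and 6.05 in KO-l-SP, against 6.65, 5.98 and 6.62 in WT-l-SP (-0.67 ± 0.34, adjusted p = 0.96), or -0.39 ± 0.34 without KO-l-SP 2. Before rounding, Oas1g was the only member with every KO array below every WT array (2.95% of genes). All 6 T and NK cell markers lay higher in KO (median 0.6, array means 5.87 to 8.19 in KO-l-SP and 4.63 to 7.6 in WT-l-SP), and their part was not tested.

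In non-leukaemic spleen 30 of 44 members lay higher in KO (52.2% of genes), with a median of 0.19, and limma called 0 (0.268% of genes), with 1 higher (4.03% of genes) and 1 lower (6.19%) at an unadjusted p under 0.05. Without the 4 arrays that stood apart the median was -0.13 and 34 members lay lower (48.4% of genes). On the slide with 1 array of each genotype it was -0.58, and on the slide with 2 KO arrays and 1 WT array 0.11. Ifit3, Rsad2 and Samd9l had all KO arrays below all WT arrays (5.24% of genes), and Psme2 and Zbp1 had all above (5.8%). Ifit3 stood at 9.02, 8.44 and 7.51 in KO-nl-SP, against 10.75, 10.25 and 9.87 in WT-nl-SP (-1.96 ± 0.94, adjusted p = 0.48). Psme2, a subunit of the proteasome activator PA28, stood at 5.1, 5.32 and 5.31 in KO-nl-SP, against 4.73, 4.96 and 4.84 in WT-nl-SP (0.4 ± 0.17, adjusted p = 0.42). Oasl1 stood at 5.62, 6.6 and 6.23 in KO-nl-SP, against 7.56, 6.72 and 6.25 in WT-nl-SP (-0.69 ± 0.37, adjusted p = 0.55), and without WT-nl-SP 1 its difference was -0.33. With all arrays in, the GTPases had a median of 0.95 and the chemokines of 1.69. Cxcl9 stood at 7.82, 5.22 and 11.23 in KO-nl-SP, against 5.44, 5.71 and 6.5 in WT-nl-SP. Cxcl10 stood at 6.06, 4.74 and 8.05 in KO-nl-SP, against 4.34, 6 and 4.97 in WT-nl-SP. Both were highest on KO-nl-SP 6, which is among the 4 arrays that stood apart. All 10 neutrophil markers lay higher in KO (median 1.82, array means 8.25 to 10.76 in KO-nl-SP and 6.25 to 8.14 in WT-nl-SP). So did all 3 monocyte markers (median 1.49, array means 8.61 to 10.41 in KO-nl-SP and 5.58 to 9.78 in WT-nl-SP, lowest on WT-nl-SP 1). The part of these cells was not tested.

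Oasl1 lay lower in KO in each of the 4 pairs of groups, by 0.78, 0.54, 0.99 and 0.69 log2 units in leukaemic marrow, leukaemic spleen, non-leukaemic marrow and non-leukaemic spleen. Within slides it lay lower on all 4 marrow slides compared, but higher in KO on 1 slide of each spleen pair (0.1 and 0.17, against -0.73 and -1.1 on the other slides). Averaged over these 4 pairs, a comparison added after the values were seen, it fell by 0.75 ± 0.17 (SE), with adjusted p = 0.03 in the limma fit. With the brightest kept probe of each gene, it was the only member called (0.687% of genes were called, 0.251% lower). At an unadjusted p under 0.05, 8 members passed, all lower (4.98% of genes). The other Oasl1 probe gave -0.72 ± 0.13, with adjusted p = 0.0021 over all kept probes. The call was lost in 12 of 40 alternatives, and over all 40 the difference ran from -0.83 to -0.35 and adjusted p from 0.0099 to 0.16. Adjusted p was 0.14 with replicate number as a block, 0.065 with slide as a fixed block, and 0.16 without the 4 spleen arrays (difference -0.61). Leaving out KO-l-SP 2, KO-nl-BM 2, KO-nl-SP 4, WT-l-SP 1, WT-nl-BM 1, WT-nl-BM 2 or WT-nl-SP 1 alone gave adjusted p from 0.05 to 0.08.

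Over the same average, 34 of 44 members lay lower in KO (51.7% of genes), with a median of -0.22. Parp9 was at -0.56 ± 0.15 with adjusted p = 0.081, while its other probe was at 0.05 ± 0.1. Ifit3 was at -1.25 ± 0.43 (adjusted p = 0.32), Ddx58 at -0.48 ± 0.17 (adjusted p = 0.34) and Oas1g at -0.98 ± 0.36 (adjusted p = 0.37). The other Ifit3 probe, detected on 25 arrays, was at -0.78 ± 0.18, with adjusted p = 0.029 in the limma fit over all kept probes. Irf1, GTPases and Cxcl9 stood on the other side of 0 without passing the test, with Irf1 at 0.4 ± 0.27 (adjusted p = 0.75), Igtp at 0.4 ± 0.37 (adjusted p = 0.84), Gbp2 at 0.58 ± 0.54 (adjusted p = 0.85) and Cxcl9 at 0.52 ± 0.68 (adjusted p = 0.91). The plot of Oasl1, Oas1g, Parp9 and Irf1 by array shows the spread behind these values. Of the 10 neutrophil markers, all lay higher in KO by this average (median 1.04), and their part was not tested.

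**Figure D4:**
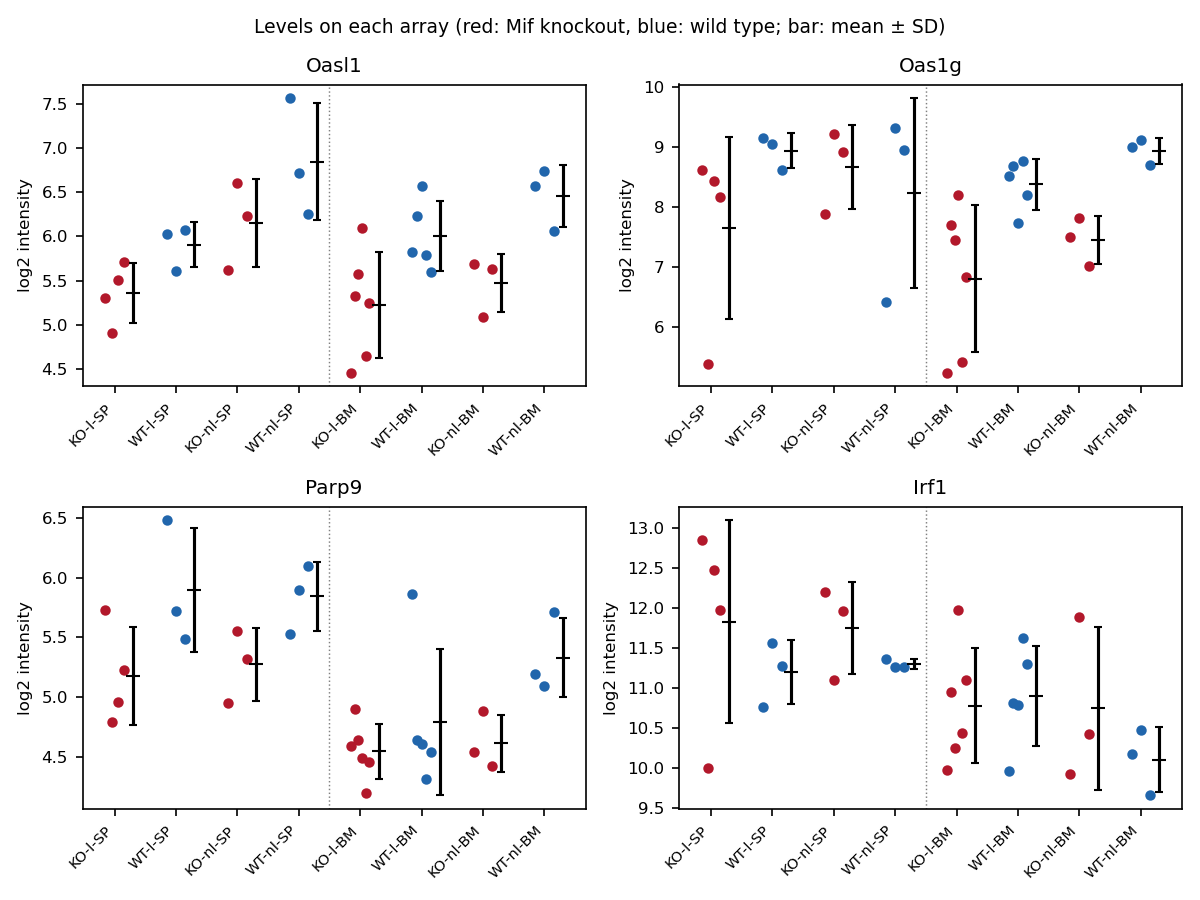
Normalised log2 intensity of Oasl1, Oas1g, Parp9 and Irf1 on each of 30 arrays by group (red: Mif KO, blue: WT), with the group mean ± SD beside the points. Oasl1 averages 5.36, 6.15, 5.22 and 5.47 in KO-l-SP, KO-nl-SP, KO-l-BM and KO-nl-BM, each below the WT group beside it.

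Whether the Mif difference was larger in marrow than in spleen, or with leukaemia than without, was tested as an interaction. In leukaemic mice the difference in marrow minus that in spleen was below 0 for 41 of 44 members (48.3% of genes), with a median of -0.37, but limma called 0 members (0% of genes) and 0 passed an unadjusted p under 0.05. The median was -0.87 without KO-l-SP 2 and -0.13 without KO-l-SP 1, and 32 to 43 members lay below 0 as each array was left out. Tap1 had the smallest p, at -1.14 ± 0.62 with adjusted p = 1, followed by Dhx58 at -0.74 ± 0.48 and Stat2 at -0.87 ± 0.56. In marrow, the difference with leukaemia minus that without was below 0 for 28 members (49% of genes), with a median of -0.12, and 0 were called (0% of genes), with 0 at an unadjusted p under 0.05. Tap1 again came first, at -0.86 ± 0.65, followed by Cxcl9 at -2.22 ± 1.82 and Oas1a at 0.47 ± 0.38. Without KO-nl-BM 2, Tap1 was at -0.17 and Cxcl9 at -0.95, and the median ran from -0.22 to -0.03 as each array was left out.

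The leukaemia comparison asks how macrophages of leukaemic mice differ from those of leukaemia-free mice. None of the 44 members was called by limma in any of its 4 pairs of groups. Oasl1 had the smallest p among members in both spleen comparisons. It stood at 6.03, 5.61 and 6.07 in WT-l-SP, against 7.56, 6.72 and 6.25 in WT-nl-SP (-0.94 ± 0.37, adjusted p = 0.18), with every leukaemic array below every non-leukaemic array. In KO spleen it stood at 5.3, 4.91, 5.51 and 5.71 in KO-l-SP, against 5.62, 6.6 and 6.23 in KO-nl-SP (-0.79 ± 0.34, adjusted p = 0.88), with an overlap of 1 array on each side. Averaged over the 4 pairs, also added after the values were seen, Oasl1 was at -0.61 ± 0.17 with adjusted p = 0.093 in the limma fit. By that average 0 members were called (0.0419% of genes), 5 passed an unadjusted p under 0.05, all lower (11.1% of genes), and 31 of 44 lay lower (54.4% of genes) with a median of -0.17.

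In WT spleen, 23 members lay higher and 21 lower with leukaemia (49.3% of genes higher), with a median of 0.04, which was -0.16 without the 4 arrays and -0.21 on the slide with 1 array of each group. Limma called 0 members (0.142% of genes), and 3 passed an unadjusted p under 0.05, all lower (9.11% of genes). These were Oasl1, Ifit3 and Ifit2. Ifit3 stood at 7.84, 8.16 and 8.42 in WT-l-SP, against 10.75, 10.25 and 9.87 in WT-nl-SP (-2.15 ± 0.94, adjusted p = 0.24), and with Oasl1 it was 1 of 2 members whose leukaemic arrays all lay below (7.78% of genes). Ifit2 stood at 6.44, 6.64 and 7.88 in WT-l-SP, against 8.32, 8.21 and 7.8 in WT-nl-SP, overlapping by 1 array on each side (-1.12 ± 0.51, adjusted p = 0.26). Cxcl9 pointed the other way at 2.42 ± 1.46 (adjusted p = 0.43), with 6.15, 9.11 and 9.64 in WT-l-SP against 5.44, 5.71 and 6.5 in WT-nl-SP. In KO spleen 33 of 44 lay lower (53.3% of genes), with a median of -0.27, and without KO-l-SP 2 the median was 0.05 with 27 higher (47.1% of genes). Limma called 0 (0% of genes), 2 passed an unadjusted p under 0.05, both lower (3.52% of genes), and Ifih1 had all leukaemic arrays below (3.06% of genes). The Ifih1 probe was detected on 0 of 4 KO-l-SP and 1 of 3 KO-nl-SP arrays, so these levels lie near background. Trim30a was at -0.89 ± 0.41 and Psme2 at -0.3 ± 0.16, both with adjusted p = 0.88. All 8 erythroid markers lay higher with leukaemia in both genotypes (median 1.37 in KO and 1.91 in WT spleen), as did all 6 T and NK cell markers (0.67 and 0.86). The macrophage markers lay lower, all 5 in KO (median -0.75) and 4 of 5 in WT (-1.05). All 10 neutrophil markers lay higher in WT (median 1.27). Array means of the neutrophil list were 7.48, 6.52 and 12.99 in WT-l-SP, against 6.25, 8.14 and 7.77 in WT-nl-SP. Only WT-l-SP 3 was high. All 3 monocyte markers lay lower in KO (median -0.84) and higher in WT (0.48). Their array means were 9.75, 8.85 and 7.8 in WT-l-SP, against 5.58, 9.78 and 9.1 in WT-nl-SP, where WT-nl-SP 1 was low. The part of all these cells was not tested.

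In WT marrow 26 of 44 members lay lower with leukaemia (54.8% of genes), with a median of -0.2, and limma called 0 (0% of genes), with 1 higher (4.16% of genes) and 1 lower (6.32%) at an unadjusted p under 0.05. Ifih1 stood at 4.26, 4.23, 5.46, 4.76 and 5.17 in WT-l-BM, against 4.3, 4.38 and 4.25 in WT-nl-BM (adjusted p = 0.46). Its probe was detected on 3 of the 5 WT-l-BM arrays and on no WT-nl-BM array. The values 5.46, 4.76 and 5.17 came from 1 slide, which held only leukaemic marrow arrays. Slide and leukaemia cannot be told apart for them, and the Ifih1 difference ran from 0.03 to 0.6 over the alternatives. Rsad2 (viperin, which makes a chain-terminating nucleotide) stood at 8.79, 9.01, 8.11, 9.6 and 7.53 in WT-l-BM, against 10.09, 10.68 and 8.86 in WT-nl-BM (-1.27 ± 0.6, adjusted p = 0.46), and only Oas1a had all leukaemic arrays below (5.48% of genes). Isg20, an exonuclease, was at -0.85 ± 0.43 (adjusted p = 0.49), and Cxcl9 again stood higher at 2.12 ± 1.31 (adjusted p = 0.59). On 2 slides with 1 array of each group the median was -0.57 and 0.14, and on the slide that held both KO marrow groups it was -0.82. All 8 erythroid markers lay lower with leukaemia in marrow (median -0.43 in KO and -1.92 in WT), and their part was not tested. In KO marrow 35 of 44 lay lower (55.2% of genes), with a median of -0.27, and limma called 0 (0% of genes), with 1 at an unadjusted p under 0.05, lower (3.4% of genes). That was Samd9l, an antiviral restriction factor, which stood at 8.75, 10.6 and 11.37 (lowest, median, highest) in KO-l-BM, against 12.25, 10.71 and 11.32 in KO-nl-BM (-1.03 ± 0.49, adjusted p = 0.74). Without KO-nl-BM 1 it was at -0.62, and without KO-l-BM 1 the median of the members was -0.1.

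The tissue comparison set spleen against marrow. Averaged over the 4 pairs of groups, 35 of 44 members lay higher in spleen (52.6% of genes), with a median of 0.25, or 0.23 with slide as a fixed block. Parp9 and Irf1 rose (8.5% of genes were called higher) and Psme2 fell (7.25% were called lower); over all genes 15.7% were called. At an unadjusted p under 0.05, 5 members were higher (16.6% of genes) and 2 lower (13.5%). The members' share is no higher than that of all genes. Parp9 was 0.73 ± 0.15 higher in spleen, with adjusted p = 0.0014 in the limma fit. In WT-l-SP it stood at 6.48, 5.72 and 5.49, against 5.86, 4.64, 4.61, 4.31 and 4.54 in WT-l-BM, where WT-l-BM 1 alone reached the spleen range. In KO-nl-SP it stood at 4.95, 5.55 and 5.32, against 4.54, 4.88 and 4.42 in KO-nl-BM, without overlap. The call held in all 40 alternatives, with differences from 0.22 to 0.84. The other Parp9 probe gave 0.33 ± 0.1, with adjusted p = 0.037 over all kept probes.

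Irf1 was 0.89 ± 0.27 higher in spleen, with adjusted p = 0.028 in the limma fit. It stood at 11.37, 11.27 and 11.27 in WT-nl-SP, against 10.18, 10.48 and 9.67 in WT-nl-BM, without overlap, and at 12.85, 10.01, 12.48 and 11.98 in KO-l-SP, against 9.98, 10.69 and 11.98 (lowest, median, highest) in KO-l-BM. KO-l-SP 2 at 10.01 lay at the low end of the marrow range and the other 3 spleen arrays at or above its top. Without KO-l-SP 2 the difference over the 4 pairs was 1.04 with adjusted p = 0.0025. The call was lost in 4 of 40 alternatives, those without KO-nl-BM 1, KO-nl-SP 4, WT-l-SP 2 or WT-nl-BM 3, and adjusted p ran from 0.001 to 0.061 over all 40. Of the 4 other kept Irf1 probes none was called, with differences from 0.15 to 0.88 and adjusted p from 0.074 to 0.5 over all kept probes. Psme2 fell by 0.24 ± 0.08, with adjusted p = 0.041, and lost the call in 23 of 40 alternatives, with adjusted p from 0.0029 to 0.097 over all 40. In WT-nl-SP it stood at 4.73, 4.96 and 4.84, against 5.17, 5.45 and 5.63 in WT-nl-BM.

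More members passed once arrays that stood apart were left out. Of these, KO-l-SP 2, WT-l-SP 3 and KO-nl-SP 6 were picked for lying closest to a marrow array, and those marrow arrays were kept. Leaving such spleen arrays out tends to widen the tissue difference by itself, so the added calls are no independent support for it. With all arrays in, Parp14 was at 0.66 ± 0.26 (adjusted p = 0.084), Igtp at 0.83 ± 0.37 (adjusted p = 0.13), Irf7 at 0.67 ± 0.32 (adjusted p = 0.15) and Cxcl9 at 1.27 ± 0.68 (adjusted p = 0.21). Without KO-l-SP 2, limma called 5 members higher (9.92% of genes), namely Parp9, Irf1, Parp14, Igtp and Irf7, and Psme2 lower (8.26% of genes). Without all 4 spleen arrays that stood apart, 11 of 44 were called higher (13.5% of genes) and 0 lower, with a median of 0.4. They were Parp9, Parp14 (1.01), Ifi35 (0.65), Oas2 (1.21), Irf1 (1), Irf7 (1.09), Ifitm3 (0.38), Oas1g (0.9), Rtp4 (0.51), Stat2 (0.61) and Oas1a (0.41). By role, the chemokines (median 0.82), the PARP genes (0.69) and the GTPases (0.57) stood highest with all arrays in, followed by the regulators and the Ifit genes (both 0.52), and the antiviral effectors stood at 0.08.

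The tissue difference is given for each pair of groups. In leukaemic mice, whether it differed between genotypes is the interaction of marrow and spleen given above with its sign reversed. There limma called 0 members (0% of genes). In non-leukaemic mice it was not tested. In leukaemic KO mice 37 of 44 members lay higher in spleen (51.9% of genes), with a median of 0.44, and limma called 0 (2.35% of genes), with 5 at an unadjusted p under 0.05, all higher (10.2% of genes). Without KO-l-SP 2 the median was 0.83, and 7 of 44 were called higher (4.4% of genes). Without all 4 arrays it was 12 (6.77% of genes). As above, leaving out spleen arrays that lie close to marrow tends to add such calls by itself. Without KO-l-SP 1 instead, the median was 0.25, with Igtp at 0.97 and Parp14 at 0.79. Those called without KO-l-SP 2 were Parp14 (1.72 ± 0.39, adjusted p = 0.012), Irf1 (1.66, adjusted p = 0.019), Igtp (2.21, adjusted p = 0.025), Zbp1 (0.83, adjusted p = 0.032), Irf7 (1.76, adjusted p = 0.033), Stat2 (1.19, adjusted p = 0.039) and Ifit3 (2.27, adjusted p = 0.048). Igtp stood at 11.2, 7.47, 10.86 and 9.4 in KO-l-SP, against 7.14, 7.98 and 9.93 (lowest, median, highest) in KO-l-BM. Parp14 stood at 10.83, 8.04, 10.2 and 10.12 in KO-l-SP, against 7.25, 8.92 and 9.47 in KO-l-BM. KO-l-SP 2 lay inside the marrow range for both, the other 3 spleen arrays lay above it for Parp14, and 2 of them did for Igtp. Within slides that held both tissues, the median over members was 1.75, -0.45 and 0.47; the slide at -0.45 was the one with KO-l-SP 2.

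**Figure D5:**
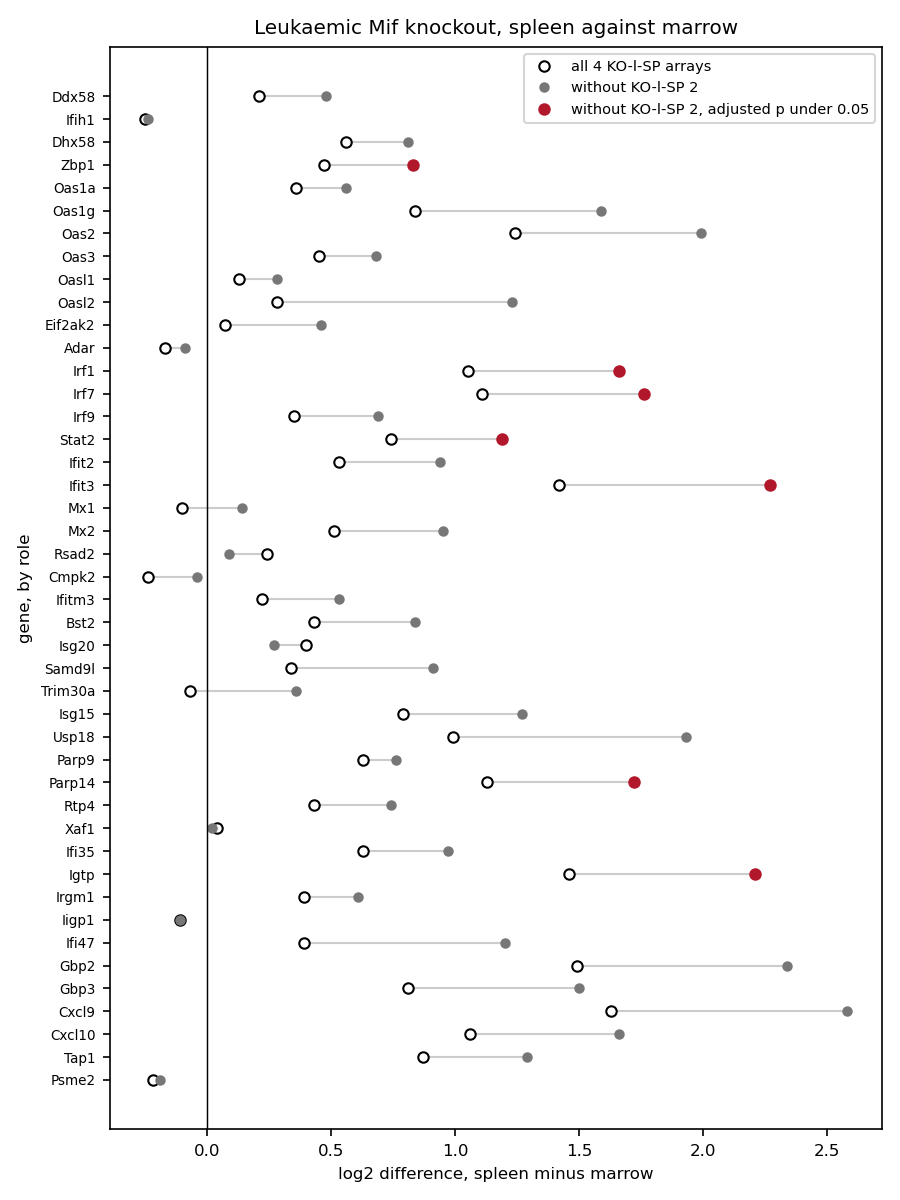
Log2 difference between spleen and marrow in leukaemic Mif KO mice for each of 44 members, with all 4 KO-l-SP arrays (open circles) and without KO-l-SP 2 (filled circles, red where adjusted p is under 0.05). The median moves to 0.83 without that array, against 0.44 with it, and 7 members turn red.

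In non-leukaemic KO mice 40 of 44 members lay higher in spleen (53.4% of genes), with a median of 0.63, and for 9 members every spleen array lay above every marrow array (8.09% of genes). They were Parp9, Parp14, Zbp1, Irf7, Dhx58, Trim30a, Oas1g, Oasl2 and Ifitm3. Limma called 0 members (0% of genes), with 2 at an unadjusted p under 0.05, both higher (4.47% of genes). Within the 2 slides that held both tissues the median was 0.31 and 0.77. All 5 macrophage markers lay higher in spleen (median 1.05), while all 10 neutrophil markers (-2.95) and 7 of 8 erythroid markers (-1.41) lay lower, and their part was not tested. In WT mice the members were split evenly, 22 higher and 22 lower, in leukaemic (53.1% of genes higher) and in non-leukaemic mice (51.2%), both with a median of 0. Limma called 0 members in either (0.0168% and 3.86% of genes), with 1 higher (6.28% of genes) and 1 lower (4%) at an unadjusted p under 0.05 in leukaemic mice and 2 lower (10.2%) in non-leukaemic mice. In non-leukaemic WT mice Irf1 and Iigp1 had all spleen arrays above (11.9% of genes) and Psme2 all below (13.5%). The Iigp1 probe was detected on 1 of 3 WT-nl-SP and 0 of 3 WT-nl-BM arrays, so its levels lie near background. Without the 4 arrays the median was 0.06 in leukaemic and 0.31 in non-leukaemic WT mice. Within 2 slides of non-leukaemic WT mice it was -0.76 and 0.83. The smallest p-values belonged to Parp9 in leukaemic WT mice (1.1 ± 0.28, adjusted p = 0.12) and to Psme2 in non-leukaemic WT mice (-0.57 ± 0.17, adjusted p = 0.061).

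Genes around the members showed tissue differences of their own over the 4 pairs. Of 25 genes of interferon production and signalling, 7 were called higher in spleen (8.5% of genes) and 0 lower, among them Socs3, a feedback inhibitor of cytokine receptors (1.71 ± 0.42, adjusted p = 0.0077), Irf3 (0.34 ± 0.09, adjusted p = 0.0094), Stat3 (0.46 ± 0.12, adjusted p = 0.0096), the adaptor Myd88 (0.47 ± 0.13, adjusted p = 0.013) and the endosomal RNA receptor Tlr7 (1.07 ± 0.29, adjusted p = 0.013). Of 45 other interferon-induced genes, 9 were called higher (8.5% of genes) and 0 lower, led by Cd274, the checkpoint ligand PD-L1 (1.78 ± 0.41, adjusted p = 0.0045), and Ccl5, a T-cell chemokine (2.9 ± 0.77, adjusted p = 0.012). Ccl5 averaged 10.35 ± 1.23 (SD, n = 4) in KO-l-SP and 7.01 ± 1.77 (SD, n = 6) in KO-l-BM. The Ccl5 arrays of these groups overlapped, with 9.33 to 11.9 in KO-l-SP and 5.08 to 9.94 in KO-l-BM. All 10 neutrophil markers lay lower in spleen (median -2.78), as did all 3 monocyte markers (median -0.8) and 7 of 8 erythroid markers (median -0.88), while all 6 T and NK cell markers lay higher (median 0.75). The part of these cells in the tissue differences was not tested.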

How the data were processed

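Biotin-labelled RNA of sorted F4/80+ macrophages was hybridised to 30 Illumina mouse arrays. The deposited table holds probe intensities that were not normalised, with a detection p-value for each probe and array, per the file headers. A further deposited table holds log2 values normalised by the authors. Per the submitters' processing notes Partek was used, but no source used here states how the values were normalised. Its columns had a median of 6.41 and correlated with log2 intensity at r = 0.99 to 0.997, and it served as an alternative.

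Intensities were background-corrected and quantile-normalised on the log2 scale with neqc (offset 16) in limma 3.58.1 under R 4.3.3. Probes with a detection p-value under 0.05 on at least 3 arrays were kept (23515), and the brightest kept probe stood for each of 11937 genes. Of 45281 probes, 34885 had 1 gene symbol, 18 several and 10378 none, and 34807 were matched to RefSeq by gene ID. A model over 8 groups was fitted with lmFit and eBayes, and p-values were Benjamini-Hochberg adjusted over all genes. The scripts were tested on simulated data. No arrays were identical. The number of arrays limits the precision.

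The members and lists were chosen with earlier results of these data known. The averages of the 4 Mif pairs and of the 4 leukaemia pairs, and leaving out the 4 spleen arrays that stood apart, were added after values were seen. Members named in full were those called or otherwise those with the smallest p-values in a comparison, and the member of highest mean level in each role. From the pathway lists, at most 5 called genes were named by p, and where none was called, 2. Replicate numbers were checked as pairs: in no comparison with at least 3 shared numbers did all pairs of arrays deviate together with r above 0.1 (-0.32 to 0.25 in leukaemic marrow), so the numbers were not treated as pairing. Slide was read from the titles.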

Additional observations from a re-analysis of the deposited data

Results flagged for a closer look

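Over the 44 members and their array median in the 3 groups of at least 4 arrays, 135 sets of values were examined. An array lay far from the others of its group in 15, where chance gives about 1 in 20 for a set taken alone. Because members vary together and many flags fall on the same arrays, the sets are not independent, and the count cannot be read against that rate. In leukaemic KO marrow, array 4 was high for Cxcl9 (9.62, others 4.7 to 6.23), Cxcl10 (7.38, others 4.25 to 5.2), Ifih1 (5.01, others 4.24 to 4.52), Oas1a (5.17, others 4.16 to 4.49) and Xaf1 (4.48, others 4.18 to 4.29). Array 1 of that group was low for Cmpk2, a mitochondrial nucleotide kinase (7.22, others 8.49 to 9.16).

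In leukaemic WT marrow, array 1 was low for Oasl2 (9.31, others 10.3 to 10.61) and high for Parp9 (5.86, others 4.31 to 4.64). Array 3 was high for Mx1 (7.19, others 5.33 to 5.75) and Usp18 (8.74, others 8.09 to 8.27).

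In leukaemic KO spleen, array 2, whose closest array was a marrow array, was low for Ddx58 (4.94, others 5.97 to 6.05), Oas1g (5.4, others 8.16 to 8.61), Ifit3 (5.85, others 9.1 to 9.47), Samd9l (9.03, others 11.26 to 11.36) and Usp18 (5.11, others 8.83 to 8.92).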

How the results depend on the processing

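Across planned and added alternatives, single members were followed only where called or among the 3 smallest p-values of a comparison. Of their values, 1119 kept their direction and their side of the threshold, 39 lost a call, 25 gained one and 0 turned direction. Other members were not counted here, and some did turn, such as Oas2 in leukaemic spleen without KO-l-SP 2. In leukaemic marrow the median Mif difference stayed between -0.63 and -0.29. As each array was left out in turn, 42 to 44 members lay lower. For the mean of the 4 Mif pairs, with 1 member called, array weights gave 3, the authors' log2 values 2, every kept probe 3, and no filter 0. A replicate block gave 0, with adjusted p = 0.14 for Oasl1, and slide as a fixed block gave 0. Leaving out the 4 spleen arrays that stood apart gave 0, and leaving out each array in turn 0 to 2. In non-leukaemic marrow, array weights gave 9 and only the groups compared gave 1. For leukaemia, the authors' values gave 1 in KO spleen, 2 in WT spleen and 6 for the mean of 4, where array weights and every kept probe each gave 1. Array weights gave 3 in WT marrow.

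For spleen against marrow (mean of 4, with 3 called), array weights gave 8, the authors' values 6, every kept probe 5, leaving out each array 1 to 6, and leaving out the 4 arrays 11. Psme2 lost its call with the replicate block (adjusted p = 0.069). In leukaemic KO mice the authors' values gave 2, leaving out each array 0 to 7, and leaving out the 4 arrays 12. In leukaemic WT mice array weights gave 1 and leaving out each array 0 to 1. In non-leukaemic WT mice array weights gave 1 and the authors' values 2. The median Mif difference in marrow minus that in spleen ran from -0.87 to -0.13 when each array was left out. Over all genes, array weights, the authors' values and every kept probe called 205 genes, 205 genes and 170 probes for the mean of the 4 Mif pairs (82 otherwise), and 3241, 3276 and 2948 for the mean tissue difference (1880 otherwise). For the mean of 4 leukaemia pairs they called 467, 2613 and 45 (5 otherwise), and in non-leukaemic marrow, for Mif, 1448, 35 and 21 (9 otherwise). The cause of these shifts was not tested. Signal near background limits Xaf1, Iigp1, Ifih1 and Oas1a, and 3 to 6 arrays per group limit every test.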
